A study of Mus musculus with 6 samples.

Results

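AMPA and kainate receptors are channels opened by glutamate, and their 9 subunit genes, Gria1 to Gria4 and Grik1 to Grik5, were followed in nuclear RNA of mouse cerebellar granule cells with wild-type or conditional knockout alleles of the histone methyltransferase gene Ezh1. The 9 genes were found by symbol among the 24594 entries of the count table, each entry being an NCBI gene identifier, and all 9 passed the filter on low counts that left 13115 genes to be tested. The groups were 3 libraries of the genotype Ezh1(wt/wt);Neurod1-Cre (WT) and 3 of Ezh1(cKO/cKO);Neurod1-Cre (cKO), where cKO stands for conditional knockout, all from mice aged 7 months and all carrying the Cre recombinase. Nuclei were fixed and sorted for NeuN, a neuronal nuclear antigen, and not for the action of Cre, so the share of nuclei in which Ezh1 was deleted is not known. How Neurod1-Cre was placed in the genome is not in the labels. Nor do they say that each library is from an animal of its own, so a p-value reflects the spread among these 6 libraries alone, which may be technical. The study asks whether neurons that no longer divide need H3K27me3, the repressive histone mark made by Ezh1 and its relative Ezh2, to keep their gene expression.

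AMPA receptors are tetramers that carry most fast excitatory transmission in the brain, including that from mossy fibres onto granule cells. Kainate receptors are tetramers of the same general build that act on either side of the synapse, where they tune release and excitability. Granule cell axons, the parallel fibres, carry kainate receptors as well. Nuclear RNA holds unspliced and retained transcripts, so a level here is not that of the receptor protein nor of cytoplasmic mRNA.

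Each library held 6340236 to 8284768 counts. Levels are given as CPM, the counts for each 1000000 of a library's total, scaled by its trimmed-mean (TMM) factor. Ezh1 was at 71.0, 75.6 and 83.3 CPM in WT and 52.5, 50.9 and 55.6 CPM in cKO (log2 fold change -0.53, SE 0.10, adjusted p = 0.00672). A count over the whole gene takes in transcripts of exons left in place, so this does not measure intact Ezh1. Xist, which silences an X chromosome in female cells, was at 811.5 CPM in WT replicate 1 and 831 CPM in cKO replicate 1, and at 1.39 to 4.46 CPM in the other libraries. Of the 12 granule cell markers all were tested and 1, Neurod1, was called (log2 fold change 1.11), with a sum of 4975 to 5081 CPM in WT and 4809 to 5732 CPM in cKO. Of 4 vessel markers, the endothelial marker Cldn5 and the pericyte marker Rgs5 had 0 counts in 3 libraries each. Pecam1, with 5 to 19 counts a library, was the only 1 tested and was not called. Flt1 had 3 to 12 counts a library, too few to be tested. In CPM every cKO library of Flt1 (1.24 to 1.73) lay above every WT library (0.45 to 1.11), as for 7.91% of all tested genes. The quasi-likelihood test of edgeR called 77 genes (43 higher and 34 lower in cKO), and 69 higher and 32 lower with library size alone as the scale. The number called fell to 18 without WT replicate 2, 13 without WT replicate 3 and 14 without cKO replicate 1, and rose to 249 without WT replicate 1 and 150 without cKO replicate 2.

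The start regions of 4 members are shown, because Gria2 and Gria4 carried most AMPA counts with little difference between genotypes, while Grik2 and Grik3 were the members whose genotypes did not overlap. Polycomb complexes are known to gather at start regions rich in the dinucleotide CG. RefSeq's table for GRCm38.p6 held a start for 6 of the 9 members. The 250 bases before each start are given 5′ to 3′ on the gene's strand, with each CG in capitals; CG reads the same on either strand. The windows are chr3:80802836-80803085 (minus strand) for Gria2, chr9:4796235-4796484 (minus) for Gria4, chr10:49788755-49789004 (minus) for Grik2 and chr4:125490446-125490695 (plus) for Grik3. The window of Gria4 lies just before the annotated gene, and those of Gria2, Grik2 and Grik3 lie inside the gene's outer bounds as RefSeq gives them.
Gria2: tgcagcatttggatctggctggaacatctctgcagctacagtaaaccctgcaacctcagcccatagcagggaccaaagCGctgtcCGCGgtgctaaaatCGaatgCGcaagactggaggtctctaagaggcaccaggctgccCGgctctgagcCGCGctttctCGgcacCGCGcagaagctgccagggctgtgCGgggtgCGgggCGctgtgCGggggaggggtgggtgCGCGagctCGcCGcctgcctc
Gria4: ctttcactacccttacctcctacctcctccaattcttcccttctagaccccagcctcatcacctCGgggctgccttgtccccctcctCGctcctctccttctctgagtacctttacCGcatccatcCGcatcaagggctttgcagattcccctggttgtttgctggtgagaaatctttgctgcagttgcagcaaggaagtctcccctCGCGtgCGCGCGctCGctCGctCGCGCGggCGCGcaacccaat
Grik2: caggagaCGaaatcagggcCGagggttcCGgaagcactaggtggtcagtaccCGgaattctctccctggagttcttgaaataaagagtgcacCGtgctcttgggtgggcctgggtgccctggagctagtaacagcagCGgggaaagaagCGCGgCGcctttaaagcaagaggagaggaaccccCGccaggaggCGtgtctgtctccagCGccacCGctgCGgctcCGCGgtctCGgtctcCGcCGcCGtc
Grik3: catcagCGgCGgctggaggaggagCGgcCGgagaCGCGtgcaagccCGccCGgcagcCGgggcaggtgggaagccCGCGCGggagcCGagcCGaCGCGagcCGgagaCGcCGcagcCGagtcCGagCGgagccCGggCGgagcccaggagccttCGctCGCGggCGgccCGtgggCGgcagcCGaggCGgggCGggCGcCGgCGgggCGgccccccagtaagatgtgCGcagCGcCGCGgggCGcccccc

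Grik3 had 42 CG in these 250 bases, Grik2 had 20, Gria2 had 19 and Gria4 had 16. Among all 32851 windows of the table the median was 6, and among the 10377 tested genes with a window it was 16. Windows with at least as many CG made up 0.865% of the table for Grik3, 17.9% for Grik2, 19.7% for Gria2 and 25.4% for Gria4. Of the other members with a start, Grik4 had 36 CG (2.58% of the table's windows had at least as many) and Grik5 had 8 (43.0%). The genotypes overlapped for both Grik4 and Grik5. All 6 thus lay above the median of the table, and Grik5 alone lay below 16, the median of the tested genes. Histone marks at these starts were not analysed here.

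None of the 9 subunit genes passed an adjusted p of 0.05 with edgeR, which called 0.587% of all tested genes (0.328% higher and 0.259% lower), nor with DESeq2 or limma-voom. An unadjusted p below 0.05 was found for 2 of the 9, Grik1 and Grik3, against 11.9% of all tested genes. Both were higher, where 5.8% of all tested genes were, and none was lower, against 6.05%. The genotypes did not overlap for 2 of the 9, Grik2 and Grik3, both higher in cKO, where 16.3% of all tested genes were separated in either direction 7.91% were higher and 8.4% lower. DESeq2 gave no adjusted p to Grik1 and Grik4, which its filter on low levels set aside. For 8 of the 9 the 95% interval of the log2 fold change lay within 2-fold, as it did for 81.0% of all tested genes, and for 7 of the 9 it lay within 1.5-fold, against 54.5%. The exception to the former was Grik1, and those to the latter were Grik1 and Grik4, the members of lowest level. A positive log2 fold change was found for 4 of the 9 and for 48.8% of all tested genes, and the median was -0.0035 over the 9 members and -0.01 over all tested genes.

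**Figure D1:**
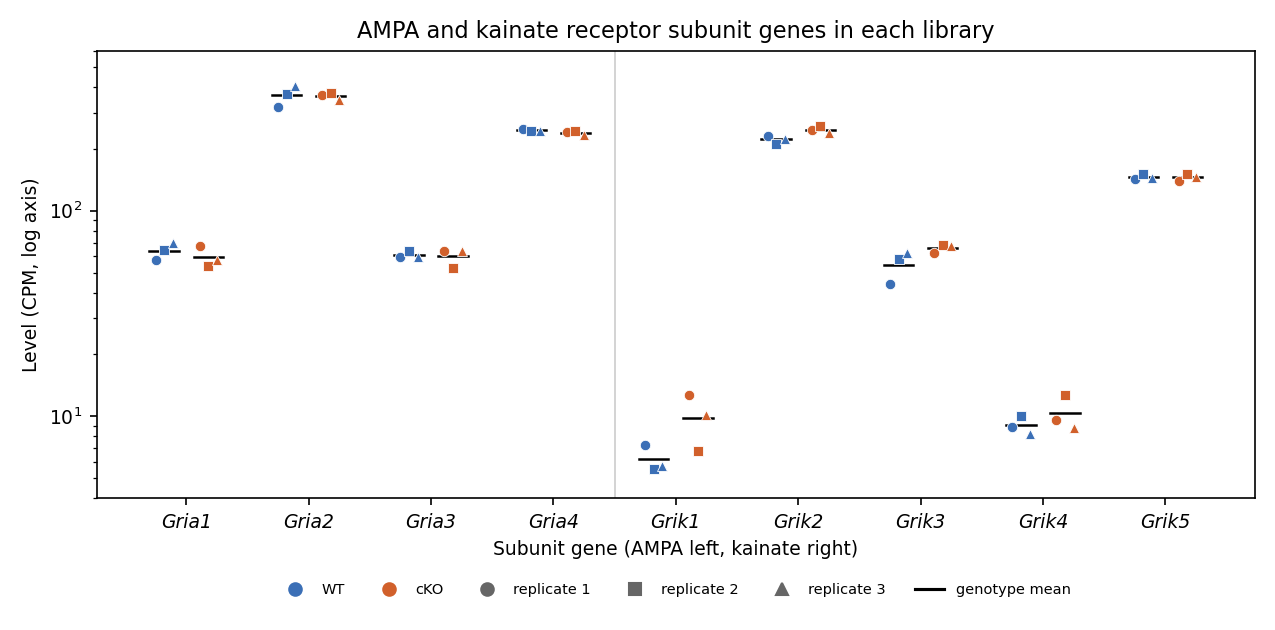
Level of each subunit gene in each library, in CPM on a log axis, with WT in blue, cKO in orange, symbols for the replicate number and a line at the mean of a genotype. The 4 AMPA genes overlap between genotypes, the 3 cKO libraries of Grik2 (239 to 258 CPM) lie above the 3 WT libraries (211 to 232 CPM), and Grik1 and Grik4 lie at or below 12.7 CPM.

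The 4 AMPA genes overlapped between genotypes, with log2 fold changes from -0.10 to -0.01 (with library size alone as the scale, Gria2 was at 0.023 and Gria3 at 0.0145). Gria2 (NCBI gene 14800; chromosome 3, 80681450 to 80804227, minus strand, GRCm38) encodes GluA2, the subunit whose RNA is edited at a codon of the pore, which makes the receptor nearly impermeable to calcium. It was at 320.3, 369.7 and 405 CPM in WT and 367, 375 and 345 CPM in cKO. The cKO libraries lay inside the WT range, in which WT replicate 1 was lowest and WT replicate 3 highest. This gave a log2 fold change of -0.01 (SE 0.08, edgeR adjusted p = 0.980), with a 95% interval that allowed a change between -11.5% and 11.5%.

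Gria4 (14802; chromosome 9, 4417893 to 4796234, minus strand) encodes GluA4, a subunit of fast receptors that granule cells are known for. It was at 248.5, 243 and 245 CPM in WT and 241, 244 and 233 CPM in cKO. Of all members it varied least among the libraries of a genotype, with a coefficient of variation of 1.09% in WT and 2.38% in cKO. The genotypes overlapped, at a log2 fold change of -0.04 (SE 0.07, edgeR adjusted p = 0.897) and an interval from -12.3% to 8.40%.

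Gria1 (14799; chromosome 11, 57011571 to 57330244, plus strand), which encodes GluA1, the subunit best known from forebrain synaptic plasticity, was at 57.7, 64.5 and 69.3 CPM in WT and 67.5, 53.6 and 57.9 CPM in cKO. The highest library of cKO lay within the WT range and the lowest below it. Its log2 fold change was -0.10 (SE 0.11, edgeR adjusted p = 0.774), with an interval from -19.7% to 8.62%. Bergmann glia, which express Gria1 and Gria4 as well, were represented by a list of 7 glial markers, all tested and 0 called by edgeR or by DESeq2 and limma-voom (1 at an unadjusted p below 0.05), with a sum of 107.5 to 139.5 CPM in WT and 126 to 135 CPM in cKO. Slc1a2 and Slc1a3, the glutamate transporter genes that hold much of that sum, had log2 fold changes of 0.37 and 0.16, and the other 5 markers were negative, from -0.76 for Gfap to -0.10 for Aldh1l1, with a median of -0.38 over the 7. Their part in the levels of these genes was not tested, and in bulk RNA fewer cells of a type and less RNA per cell cannot be told apart.

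Gria3 (53623; chromosome X, 41400819 to 41678601, plus strand), the X-linked gene of GluA3, was at 59.3, 63.8 and 59.3 CPM in WT and 63.8, 52.8 and 63.6 CPM in cKO. The libraries with high Xist, replicate 1 of each genotype, lay inside the range of the other libraries. Between genotypes the log2 fold change was -0.02 (SE 0.10, edgeR adjusted p = 0.969), with an interval from -14.6% to 14.3%.

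Grik1, Grik2 and Grik3 encode the kainate subunits that can form channels by themselves. Grik2 (14806; chromosome 10, 49093680 to 49790161, minus strand) encodes GluK2, the main such subunit of granule cells. It was at 232, 211 and 224 CPM in WT and 246, 258 and 239 CPM in cKO. Every cKO library lay above every WT library, by a narrow gap. The log2 fold change was 0.16 (SE 0.08, unadjusted p = 0.0527, adjusted p = 0.432), with an interval from -0.13% to 24.3%.

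Grik3 (14807; chromosome 4, 125490259 to 125714173, plus strand), which encodes GluK3, was at 43.8, 57.9 and 62.0 CPM in WT and 62.0, 67.9 and 67.1 CPM in cKO. WT replicate 3, at 62.02 CPM, and cKO replicate 1, at 62.03 CPM, almost touched, and WT replicate 1 lay well below the rest. The log2 fold change was 0.26 (SE 0.11, unadjusted p = 0.0276, adjusted p = 0.341), with an interval from 2.19% to 40.9%. Without WT replicate 1 it was 0.13 (adjusted p = 0.661), and without replicate 1 of both genotypes 0.17 (adjusted p = 0.698).

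Grik1 (14805; chromosome 16, 87895901 to 88290863, minus strand), which encodes GluK1, had the largest fold change of the 9 members and the lowest mean level, while its difference in CPM was smaller than those of Grik2 and Grik3. Its counts were 48, 40 and 47 in WT and 88, 44 and 66 in cKO, or 7.25, 5.57 and 5.70 CPM against 12.7, 6.79 and 10.2 CPM. The genotypes overlapped, since cKO replicate 2 lay below WT replicate 1. Its fitted log2 fold change was 0.68 (SE 0.25, 1.61-fold, unadjusted p = 0.0114, adjusted p = 0.244), with an interval from 1.12-fold to 2.30-fold. Leaving out a library moved it between 0.46 (without cKO replicate 1, adjusted p = 0.690) and 0.89 (without cKO replicate 2, adjusted p = 0.0889).

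Inhibitory interneurons of the cerebellum also express Grik1. Of 7 interneuron markers, all were tested and 0 were called by edgeR or by DESeq2 and limma-voom, with 2 at an unadjusted p below 0.05. Gad2, an enzyme of GABA synthesis, was at 7.10, 8.36 and 6.07 CPM in WT and 10.7, 9.11 and 11.4 CPM in cKO (log2 fold change 0.54, adjusted p = 0.329). The growth factor receptor gene Kit was on the other side, with a log2 fold change of -0.28 (adjusted p = 0.409). The summed level of the 7 markers was 150.5 to 178 CPM in WT and 141 to 175 CPM in cKO. Oligodendrocytes and Purkinje cells are known to lack NeuN, so the sort would remove most of them. The oligodendrocyte markers were 9 of 9 tested and 0 called by any of these tools or at an unadjusted p below 0.05. All 9 had positive log2 fold changes (median 0.32), as did 48.8% of all tested genes. Summed, they were at 433, 365 and 241 CPM in WT and 392.5, 296 and 666 CPM in cKO. Only cKO replicate 3 lay above the WT range, and the other cKO sums lay inside it. Purkinje cell markers, 6 of 7 tested and again 0 called or at an unadjusted p below 0.05, were 1 positive and 5 negative. Their sums were 443 to 632 CPM in WT and 381 to 556 CPM in cKO. Most of this was Itpr1 alone, at 391.7 to 557.6 CPM in WT and 339.5 to 481.8 CPM in cKO. DESeq2 gave an adjusted p to 3 interneuron, 4 oligodendrocyte and 1 Purkinje cell marker, and to 1 of the glial markers above. No marker of the interneuron, oligodendrocyte and Purkinje lists was at 0 in any library.

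Unipolar brush cells, excitatory interneurons of the granular layer, were followed by Eomes, Plcb4 and Lmx1a. Eomes, the transcription factor that defines them, was at 15.7, 6.13 and 8.98 CPM in WT and 21.6, 18.7 and 21.1 CPM in cKO. Every cKO library of Eomes lay above every WT library, as for 7.91% of all tested genes. Eomes had a log2 fold change of 1.00 (SE 0.25, edgeR adjusted p = 0.0868). It was called by limma-voom (adjusted p = 0.0466), and DESeq2 gave it no adjusted p. With edgeR it was also called with the replicate block (adjusted p = 0.0208) and without a filter on low counts (5.36e-05). The same held without WT replicate 1 (0.000175) and without replicate 1 of both genotypes (0.00929). Under the other edgeR settings it was not called, among them without WT replicate 2 (0.241), WT replicate 3 (0.358) or cKO replicate 1 (0.329). Plcb4, which other cerebellar cells express too, was at -0.05 on the log2 scale, and Lmx1a had 0 counts in WT replicate 3 and cKO replicate 2. Eomes was named after its values were seen. The part of these 4 cell types in the Grik1 difference was not tested.

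Grik4 and Grik5 encode GluK4 and GluK5, which bind glutamate tightly and need a partner from the former group to form a working channel. Grik5 (14809; chromosome 7, 25009849 to 25075694, minus strand) was at 142, 151 and 145 CPM in WT and 139, 152 and 146 CPM in cKO. The ranges lay on each other, and the fitted log2 fold change was -0.0035 (SE 0.08, edgeR adjusted p = 0.992), with an interval from -11.0% to 11.8%. Grik4 (110637; chromosome 9, 42518182 to 42945000, minus strand) was at 8.92, 10.0 and 8.25 CPM in WT and 9.64, 12.7 and 8.78 CPM in cKO. Its counts of 57 to 82 a library gave a wide interval, from -16.0% to 55.6%, around a log2 fold change of 0.19 (SE 0.22, adjusted p = 0.788). Without cKO replicate 2 that value was 0.03.

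**Figure D2:**
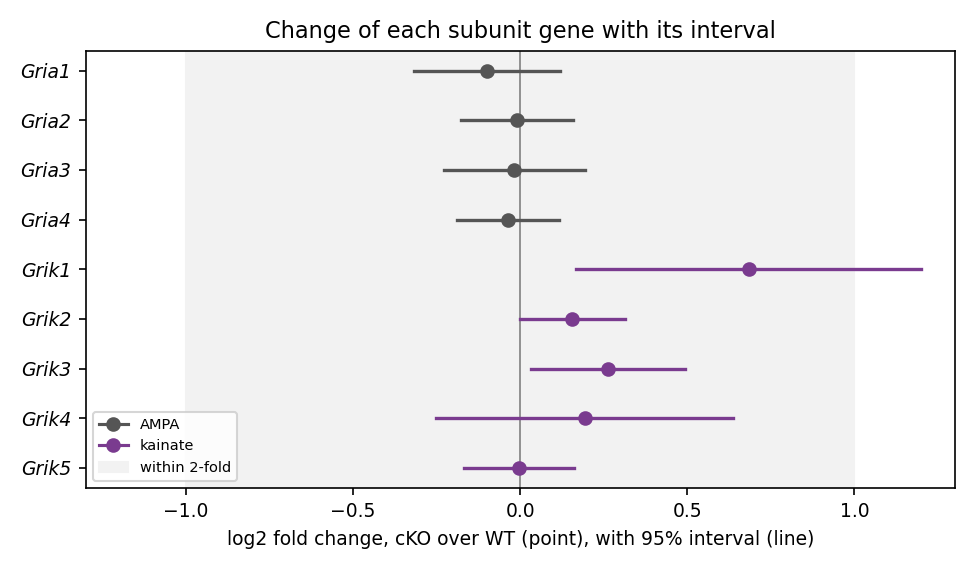
Log2 fold change of each subunit gene, cKO over WT (points), with its 95% interval from the edgeR fit over all genes (lines) and the range within 2-fold shaded. The 4 AMPA points lie between -0.10 and -0.01, and the intervals of Grik1 and Grik3 alone do not reach 0, although neither gene was called after adjustment over all 13115 genes.

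Added up, the 5 kainate genes had all 3 cKO libraries above all 3 WT libraries, and the 4 AMPA genes were not separated. The kainate sum was 434, 435 and 445 CPM in WT and 469, 497 and 471.5 CPM in cKO, a ratio of 1.09. Of the 41.1 CPM between the means, Grik2 made up 25.4, Grik3 11.1, Grik1 3.70 and Grik4 1.29, while Grik5 was 0.33 CPM lower. The AMPA sum was 686, 741 and 779 CPM in WT and 739.5, 725.5 and 700.1 CPM in cKO, a ratio of 0.982. WT replicate 1 was the lowest of the 6 AMPA sums and WT replicate 3 the highest. These sums carry no test, since their members were chosen as a group, and the kainate sum is mostly Grik2 and Grik5 counts.

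The kainate sum relative to the AMPA sum was 0.634, 0.587 and 0.571 in WT and 0.634, 0.685 and 0.674 in cKO. WT replicate 1 and cKO replicate 1 were all but equal, and the other libraries stood apart. With any library left out, or replicate 1 of both genotypes, the ratio of the kainate sums stayed between 1.07 and 1.11 and that of the AMPA sums between 0.938 and 1.01.

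Levels of different genes can be compared only per length, and were set as CPM per kilobase of the union of a gene's annotated exons (GENCODE M21). By this measure Gria4 was highest, at 37.0 to 39.4 CPM per kilobase over the 6 libraries, followed by Grik5 at 26.9 to 29.4, Gria2 at 20.6 to 26.0, Grik2 at 15.9 to 19.5 and Gria1 at 8.86 to 11.5. None of these ranges overlapped with the next. Grik3, at 4.88 to 7.57, and Gria3, at 5.36 to 6.47, did not differ beyond their spread, and neither did Grik4, at 1.38 to 2.12, and Grik1, at 0.829 to 1.88.

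This order rests on the length used, because Gria2 has a long exon union (15548 bases against 6305 for Gria4) in a short gene (122778 bases against 378342). Whether reads in introns were counted is not given in the sources used here. Per kilobase of gene span, Gria2 came first at 2.61 to 3.30 CPM, ahead of Grik5 at 2.11 to 2.31 and Gria4 at 0.616 to 0.657. Per kilobase of the longest coding transcript, a length chosen after the data were seen, Gria4 led again and the ranges of Grik5 (37.0 to 40.3) and Gria2 (30.9 to 39.0) overlapped. Grik1 and Grik4 were the lowest pair under each of these 3 lengths.

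Within its family and per exon length, Gria4 held 49.3% ± 2.56 of the AMPA sum in WT and 49.2% ± 1.11 in cKO (SD, n = 3). Gria2 held 29.6% ± 2.19 in WT and 30.2% ± 0.95 in cKO, Gria1 13.3% ± 0.64 and 12.8% ± 1.28, and Gria3 7.80% ± 0.44 and 7.89% ± 0.84. The AMPA make-up thus differed by less than the spread between libraries for each of the 4 genes.

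Among the kainate genes the share of Grik5 was lower in every cKO library. It was 52.4%, 53.9% and 51.9% in WT and 48.2%, 49.3% and 49.8% in cKO. With the gene span as length it was 77.7% to 79.2% in WT and 75.5% to 76.3% in cKO, so the genotypes were apart there too, as they were with the longest coding transcript (53.4% to 55.5% and 49.2% to 51.1%). The level of Grik5 itself overlapped between genotypes, as given above. Per exon length the shares of the other kainate genes overlapped: Grik2 held 31.4% ± 1.95 in WT and 32.6% ± 0.70 in cKO, Grik3 11.3% ± 1.82 and 12.8% ± 0.40, Grik4 2.84% ± 0.28 and 3.02% ± 0.50, and Grik1 1.72% ± 0.29 and 2.58% ± 0.84 (SD, n = 3). Per gene span the share of Grik3 did not overlap, at most 9.77% in WT and at least 9.91% in cKO. A share falls when another gene of its family is higher, so these values are not independent of those of Grik2 and Grik3, and no test was made of them.

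**Figure D3:**
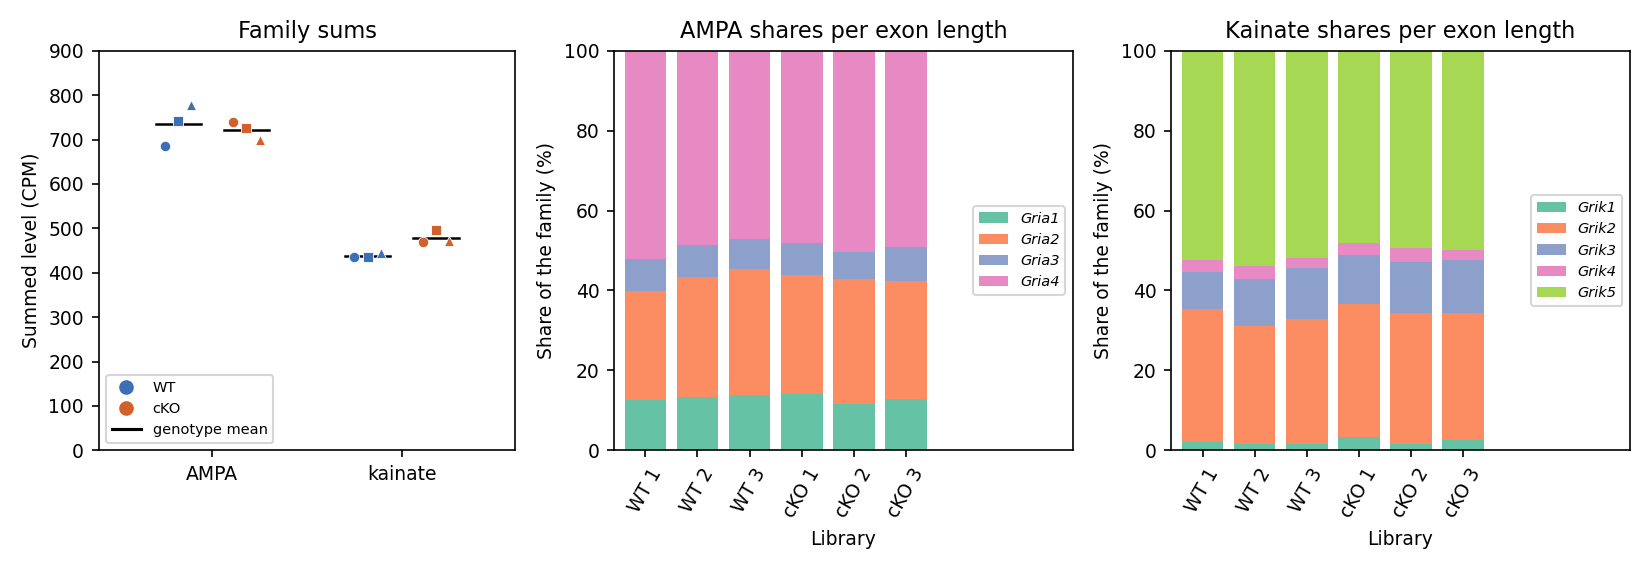
Left, summed CPM of the 4 AMPA and of the 5 kainate genes in each library, with lines at the mean of a genotype. Middle and right, the share of each gene in its family, in percent of CPM per kilobase of exon union, as stacked bars by library. The kainate sums of cKO (469 to 497 CPM) lie above those of WT (434 to 445 CPM), and the Grik5 bars are shorter in cKO (48.2% to 49.8%) than in WT (51.9% to 53.9%).

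Channel subunits work with auxiliary proteins that carry them to the synapse and set their kinetics. Of 29 genes of AMPA auxiliary subunits, assembly and trafficking, 28 were tested, and edgeR, DESeq2 and limma-voom each called 0. DESeq2's filter on low levels left an adjusted p to 13 of these genes, and in the lists below to 1 of the kainate receptor partners, 8 scaffold genes, 3 editing enzymes and 4 NMDA and delta subunits. An unadjusted p below 0.05 was found for 1 higher and 1 lower gene, 15 were positive and 13 negative, and the median log2 fold change was 0.02 (all tested genes, -0.01). Lrrtm4, a synaptic adhesion protein found in AMPA receptor complexes, was at 4.38, 3.90 and 2.79 CPM in WT and 8.35, 4.17 and 6.16 CPM in cKO (log2 fold change 0.77, SE 0.32, adjusted p = 0.325). As with Grik1, cKO replicate 2 lay inside the WT range. Porcn, an acyltransferase of the endoplasmic reticulum, had a log2 fold change of -0.21 (edgeR adjusted p = 0.370). That of Nptx1, a pentraxin that clusters AMPA receptors, was 0.17 (0.477), and that of Frrs1l, which helps assemble the receptor, -0.18 (0.489). For Frrs1l every cKO library (52.0 to 53.25 CPM) lay below every WT library (58.5 to 61.65 CPM). Of the 28 genes, 1 was thus separated lower and 0 higher, against 8.4% and 7.91% of all tested genes.

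Cacng2 encodes stargazin, the auxiliary subunit that granule cells need to bring AMPA receptors to the surface, and is named here after its values were seen. It was at 76.0, 74.1 and 73.8 CPM in WT and 86.9, 76.6 and 74.0 CPM in cKO, with a log2 fold change of 0.09 (SE 0.09, adjusted p = 0.772). The genotypes overlapped, and cKO replicate 1 was the highest library. Nptx2, a further pentraxin and the untested gene of the list, had 0 to 3 counts a library and was below the level at which a difference could be detected.

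Of 5 genes tied to kainate receptors, 2 were tested, and edgeR, DESeq2 and limma-voom called 0, with 0 at an unadjusted p below 0.05. Neto2, an auxiliary subunit that slows kainate receptor channels, was at 26.6, 27.7 and 32.5 CPM in WT and 27.9, 31.2 and 28.5 CPM in cKO (log2 fold change 0.01, SE 0.13, adjusted p = 0.989). Klhl17, which encodes actinfilin, a protein that binds GluK2, stood at -0.10 on the log2 scale (adjusted p = 0.710). The related auxiliary gene Neto1 had 2 to 15 counts a library, C1ql3 2 to 6 and C1ql2 0, and these 3 were not tested.

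Among 12 scaffold genes that anchor or move glutamate receptors, all were tested, 0 passed in edgeR, DESeq2 or limma-voom, 1 had an unadjusted p below 0.05, and the median log2 fold change was 0.03. Gripap1, which binds the AMPA receptor scaffold GRIP, was at 210, 237 and 198 CPM in WT and 168, 199 and 185 CPM in cKO (log2 fold change -0.22, SE 0.09, adjusted p = 0.272). WT replicate 3 lay just below cKO replicate 2. The genotypes did not overlap for 1 scaffold gene, Dlg1, lower in cKO, where 8.4% of all tested genes were. It was at 199.5 to 206.8 CPM in WT and 187.2 to 195.2 CPM in cKO (log2 fold change -0.09, adjusted p = 0.682). The log2 fold change was 0.14 for Pick1 (adjusted p = 0.614), which takes part in AMPA receptor internalisation, -0.15 for Dlg3 (0.651), a membrane-associated scaffold, and 0.24 for Grip2 (0.672).

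The RNA editing enzymes bear on the subunits because they recode Gria2, Grik1 and Grik2 transcripts at the pore. Of 3 such genes, all tested and 0 past the threshold in edgeR, DESeq2 or limma-voom, 1 had an unadjusted p below 0.05 and all had a positive log2 fold change. Adarb1, the deaminase that edits the pore codon of Gria2, was at 229.8, 212 and 212 CPM in WT and 264.5, 243 and 261 CPM in cKO. Every cKO library lay above every WT library, as for 7.91% of all tested genes. The log2 fold change was 0.23 (SE 0.08, unadjusted p = 0.00555, adjusted p = 0.185). For Adar the log2 fold change was 0.10 (edgeR adjusted p = 0.708), and for Adarb2, a relative without known editing activity, it was 0.17 (0.631). Counts per gene do not show whether a transcript was edited or which exons it held.

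**Figure D4:**
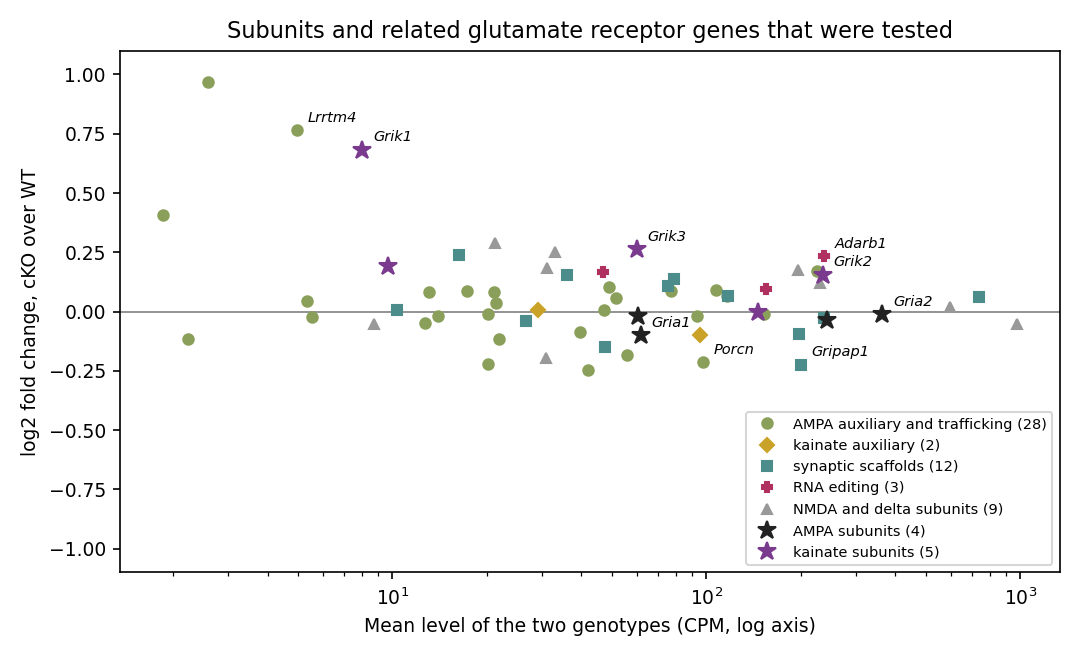
Log2 fold change, cKO over WT, against the mean level in CPM on a log axis, for the tested subunits (stars) and the tested genes of the related lists, with the number of genes of each list in the legend. None of these genes was called, and the genes farthest from 0, Lrrtm4 and Grik1 among those labelled, lie below 10 CPM.

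The other ionotropic glutamate receptor genes were 9 NMDA and delta receptor subunits. All 9 were tested, 0 passed in edgeR, DESeq2 or limma-voom, and 1 had an unadjusted p below 0.05. Their median log2 fold change was 0.12, with 6 positive and 3 negative, beside 0.19 for the 5 kainate genes and -0.03 for the 4 AMPA genes. Grin2a was at 184 ± 17.7 CPM in WT and 208 ± 8.74 CPM in cKO (SD, n = 3; log2 fold change 0.18, adjusted p = 0.401), and Grin2b had a log2 fold change of 0.25 (0.539). No test was made between the families, and the medians are given as descriptions.

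**Figure D5:**
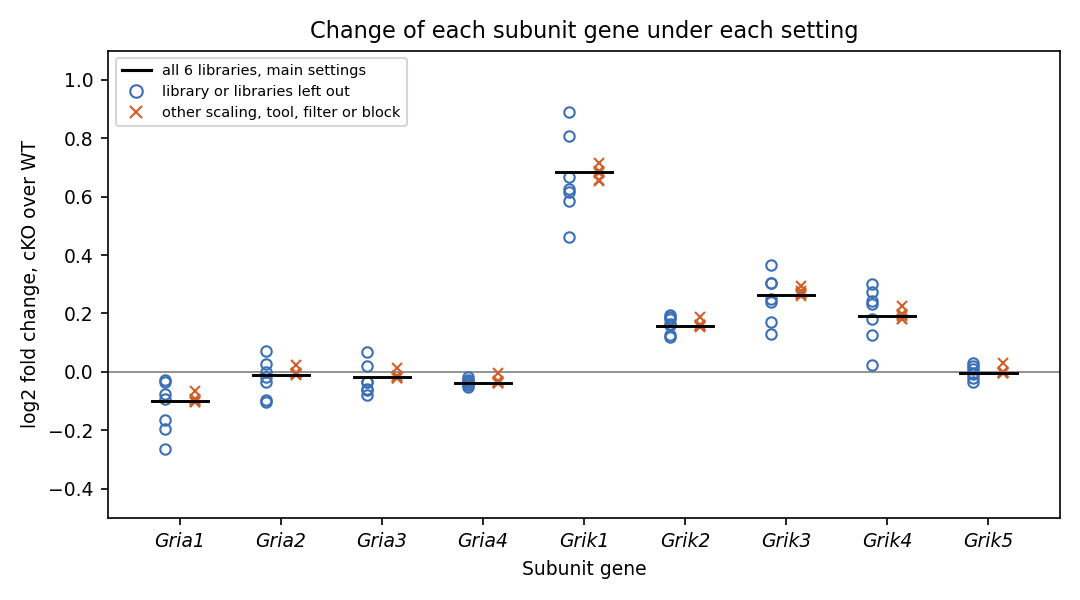
Log2 fold change of each subunit gene, cKO over WT, with all 6 libraries (black line), with 1 library or replicate 1 of both genotypes left out (circles), and with another scaling, tool, filter or a replicate block (crosses). Grik1 spans 0.46 to 0.89 and stays positive, as do Grik2 (0.12 to 0.19), Grik3 (0.13 to 0.37) and Grik4 (0.03 to 0.30), while Gria2, Gria3 and Grik5 lie on either side of 0.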

How the data were processed

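For nuclear RNA of 6 libraries the authors deposited raw gene counts, whole numbers without scaling, in a table. Per the submitters' processing notes, Subread and the mm10 genome were used. Version, annotation, use of strand and treatment of introns were not given in the sources used here. Overlapping genes therefore may share reads. Grik5 and Zfp574 (265 to 412 counts a library) overlap at 25075674 to 25075694 of chromosome 7. Mir692-2 (5 to 23 counts a library) lies inside Grik3, at 125504749 to 125504857 of chromosome 4. Of 24594 entries, 24570 matched RefSeq's GRCm38.p6 gene table, which gave symbols and positions; the 24 others held 24.5% to 26.8% of a library's counts and stayed in the library totals. No library was a copy of another: within a genotype, chi-square divided by its degrees of freedom was 4.05 to 5.06.

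The test was that of edgeR 4.0.16 in R 4.3.3: filterByExpr with default settings, TMM factors (0.982 to 1.02), robust glmQLFit and glmQLFTest over the 6 libraries with genotype as the only term, two-sided, with Benjamini-Hochberg adjustment over all 13115 genes and a threshold of 0.05. Adjusted p-values are from this test unless another tool is named. Alternatives were scaling by library size alone, DESeq2 1.42.0, voom of limma 3.58.1, no filter on low counts, a replicate block, leaving out the 4 most abundant entries (32.7% to 35.8% of a library), leaving out each library, and leaving out replicate 1 of both genotypes. The analysis was tested on simulated counts, where it recovered 70% of 100 genes changed 1.5-fold and 91% of 100 changed 2-fold. Of its 171 calls, 10 were false. Smaller changes were not simulated, and genes at the level of Grik1 and Grik4 were not among those changed. The precision of a level is limited by its counts, given for the low members, and by the spread between libraries. In WT the coefficient of variation was 17.5% for Grik3 and 11.6% for Gria2, against 9.90% for Grik4, which had fewer counts. Named were all members and Ezh1, and from each related list the called genes and the 4 of smallest p (2 for NMDA and delta subunits), and the 3 genes most correlated with the member of highest per-length level in each family (log2 CPM, prior count 2, predicted gene models left out); members, lists and tests were chosen with earlier results of these data known.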

Additional observations from a re-analysis of the deposited data

How the results depend on the processing

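No subunit gene, and no gene of the auxiliary, scaffold, RNA editing, NMDA and delta lists, was called under any of the 13 alternatives. The number of all genes called, 77, was 42 with limma-voom, 277 without a filter on low counts, 40 without replicate 1 of both genotypes, and 13 to 249 with 1 library left out. Positive log2 fold changes in place of negative ones close to 0 were found with library size alone for Gria2 (0.023), Gria3 (0.0145) and Grik5 (0.0292), and for Grik5 with the 4 most abundant entries left out (0.0011). With 1 library left out, the log2 fold change ran from -0.0953 to 0.0719 for Gria2, from -0.0622 to 0.0665 for Gria3 and from -0.0342 to 0.0301 for Grik5, and without replicate 1 of both genotypes it was 0.0114 for Grik5, -0.105 for Gria2 and -0.0805 for Gria3. The cause was not tested. Gria1 and Gria4 stayed negative and Grik1 to Grik4 positive throughout. Scaling by library size alone moved the median of all genes by 0.03.

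Pairing by replicate number was not shown: deviations of same-numbered libraries from the genotype means correlated at 0.15, 0.01 and -0.04, the first for the 2 libraries with high Xist, and not every library correlated best with its own number. With the replicate block 90 genes were called, none of them a subunit gene, and the log2 fold change of Grik1 was 0.66 (adjusted p = 0.268).

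The shares within a family, in the order Gria1 to Gria4 and Grik1 to Grik5, moved with the length by construction. Over all 6 libraries they were 4.83%, 73.7%, 5.44%, 16.02%, 0.712%, 11.8%, 9.36%, 0.793% and 77.3% per gene span, and 10.8%, 34.2%, 11.4%, 43.6%, 2.95%, 33.6%, 9.01%, 2.22% and 52.3% per longest coding transcript, which was chosen after the data were seen. With no length correction they were 8.47%, 49.9%, 8.31%, 33.3%, 1.74%, 51.2%, 13.1%, 2.11% and 31.9%. Depth limits Grik1 and Grik4 most, with 40 to 88 counts a library.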

Other observations

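Over the 6 libraries, Pearson's r of log2 CPM between pairs of members ran from -0.65 (Grik1 and Grik5) to 0.64 (Gria2 and Grik3). Within a family, r was 0.59 for Gria1 with Gria3, 0.53 for Gria1 with Gria2 and -0.49 for Gria3 with Gria4, and 0.58 for Grik4 with Grik5. These values rest on 6 libraries that share their scaling, and are given as a description.

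Among 8030 tested genes of at least 10 CPM, those whose log2 CPM followed Gria4 most closely over the 6 libraries were Med23 (r = 0.991), Dpcd (0.984) and Map2 (0.978). For Grik5 they were Camta2 (0.983), Bdh1 (0.983) and Snapc4 (0.980). Gria4 and Grik5 were the members of highest level per exon length in their families. A search of 8030 genes over 6 libraries can return values this high among unrelated genes. Gria4 itself ran only from 233 to 248.5 CPM. No test was made of these correlations, and they are given as a description.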
